A study of Homo sapiens with 3 samples.

Results

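The nuclear-encoded subunits of the mitochondrial respiratory chain, taken complex by complex, were described in UM-UC-3 cells, an established human bladder cancer line, after knockdown of the long noncoding RNA DANCR. Members were chosen by gene symbol alone: probe sets naming a single gene whose symbol starts with NDUFA, NDUFB, NDUFC, NDUFS, NDUFV, UQCR, COX4, COX5, COX6, COX7, COX8 or ATP5, or is SDHA, SDHB, SDHC, SDHD or CYC1, with 2 pseudogenes left out. The rule took 172 probe sets of 89 genes, out of 41091 single-gene probe sets of 19775 genes. It drew in more than subunits: 76 genes code for subunits of complexes I to V, 10 for assembly factors or other associated proteins, and 3 are antisense or divergent transcripts. Subunits without a single-gene probe set were not analysed here.

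Each of 3 cultures gave 1 Affymetrix array, so that every group has a single array. All received an siRNA at 75 nM for 48 h. One culture was given a negative control siRNA, and the others were given DANCR siRNA1 or DANCR siRNA2. The cultures shared the line, and no untransfected culture was analysed here. The question was which genes differ from the control with both DANCR siRNAs. The siRNAs are shown because they are all that separates the groups by design, and the capitals mark the 3′ TT overhang of each strand:
Control siRNA: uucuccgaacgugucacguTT
DANCR siRNA1: gcguacuaacuuguagcaaTT
DANCR siRNA2: gagcuagagcagugacaauTT

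The respiratory chain sits in the inner mitochondrial membrane. Complexes I and II pass electrons from NADH and succinate to coenzyme Q, complex III passes them on to cytochrome c, and complex IV hands them to oxygen, while complexes I, III and IV pump the protons whose return drives ATP synthesis by complex V. Most subunits are encoded in the nucleus and are assembled with a small set made inside mitochondria, so that the nuclear genes of a complex are often described as a group.

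With no replicate array, no difference below has a p-value of its own, and sizes hold for these 3 arrays. Each value is an intensity on a linear scale, and a log2 ratio compares the same probe set on 2 arrays. Values below the median of all values (intensity 10.5) were raised to it, and a gene counted as measured when at least 1 array exceeded it, which held for 12436 genes in the series. The brightest probe set stood for its gene. Of the 89 members, 83 were measured, among them 71 of the 76 subunits.

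The DANCR probe set read 671 with the control siRNA, 116 with siRNA1 and 126 with siRNA2, or 17.3% and 18.8% of the control. Between 48.9% and 49.3% of probe sets exceeded the floor on each array, and 32.1% had an equal value on all 3 arrays (relative tolerance 1e-09), as did 3 respiratory subunits, NDUFAB1, NDUFB11 and NDUFB2. The 3′ to 5′ ratio of the ACTB control probes, a sign of RNA quality, was 11.9 on the control array, 11.8 with siRNA1 and 14.4 with siRNA2. That of the GAPDH control probes was far lower, at 1.25, 1.29 and 1.35 in the same order. Of 11 urothelial markers 5 exceeded the floor, and EPCAM, KRT19 and the uroplakins did not, so the labelled origin was only partly borne out. Passing the floor says little here, as 2 of 4 markers each of fibroblasts, endothelium and leukocytes did so too. The summed urothelial intensity was 1429.8, 819 and 1149 in the order control, siRNA1 and siRNA2, against 5404, 4474 and 4955 for the mesenchymal markers VIM and CDH2. KRT18 made up most of the urothelial sum (1315, 711 and 1022). KRT7, KRT8, GATA3 and PPARG read at most 35.2, and GATA3 (20.2, 20.2 and 35.2) and PPARG (12.5, 14.9 and 14.9) did not fall. Summed markers of fibroblasts, endothelium, leukocytes, striated muscle, testis and blood or liver reached at most 93.8 on any array, and the part of these marker shifts in the ratios below was not tested. In bulk RNA, fewer cells of a type and less RNA per cell cannot be told apart.

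Respiratory subunits were slightly brighter with siRNA2 and close to the control with siRNA1. The median log2 ratio over the 71 measured subunits was 0.03 with siRNA1 and 0.14 with siRNA2, against 0.00 over all measured genes in both comparisons. Median-centring, which here centred each array on the median of its values above the floor, moved the median of all genes to -0.11 with siRNA2. Relative to that shift the subunits stood 0.14 above, as they did in the deposited scaling, but their absolute median was then only 0.03. By direction, 53 of the 83 measured members (63.9%) were higher with siRNA1, beside 42.3% of all measured genes, and 22 (26.5%) were lower, beside 39.5%. With siRNA2, 60 members (72.3%) were higher, beside 45.0% of all genes, and 16 (19.3%) were lower, beside 36.2%. Members thus leaned up more often than genes at large with both siRNAs.

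Respiratory genes are bright on these arrays, so 467 other genes at least as bright as the median member (intensity 1068) give a closer background. Of these, 47.8% were higher and 44.8% lower with siRNA1, and 48.8% were higher and 42.6% lower with siRNA2. The shares depend on the scaling: after median-centring, 47.0% of members were higher with siRNA1, beside 38.6% of all genes, and 56.6% with siRNA2, beside 34.5%. Members stayed above all genes under either scaling, but with siRNA1 no longer were most of them higher. Both siRNA arrays are read against the same control array, so that the 2 ratios of a gene are not independent. Higher with both were 44 members, or 53.0%, beside 29.2% of all genes and 33.2% of the bright ones, and lower with both were 8, or 9.64%, beside 23.7% and 28.5%. After median-centring these were 29 members higher and 26 lower, beside 22.9% and 49.7% of all genes.

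The medians of the complexes lay close together, and their spreads differed more. Complex I, with 33 subunits, had a median log2 ratio of 0.00 with siRNA1 and 0.09 with siRNA2. Complex II, with 3, stood at 0.14 and 0.22. Complex III, with 7, stood at 0.09 and 0.23. Complex I thus had the lowest of these medians in both comparisons. Complex IV, with 12 measured subunits, had medians of 0.08 and 0.19, and complex V, with 16, of 0.05 and 0.12. With siRNA2, no subunit of complexes II, III or IV was below the control. In complex I 9 of 33 were, and in complex V 4 of 16. Of all measured genes 36.2% were lower with siRNA2, and of the bright ones 42.6%. Complexes I and V thus also had smaller shares below the control than genes at large. After median-centring the counts below were 17 of 33, 1 of 3, 0 of 7, 3 of 12 and 8 of 16 in the order of the complexes. The median of all genes was then -0.11, so most genes at large were below as well. Complex III alone thus had no subunit below the control with siRNA2 under both scalings. These counts keep to the 71 subunits measured in the deposited scaling. Under median-centring 73 counted as measured, among them ATP5MF of complex V. The siRNA2 median of complex I was then -0.02, while those of complexes II, III and IV stayed above zero at 0.11, 0.12 and 0.06. That of complex V was -0.0016 with ATP5MF included, so its sign does not describe the same 16 genes. Relative to the shift of all genes, complexes I to V stood 0.09, 0.22, 0.23, 0.17 and 0.11 above.

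**Figure D1:**
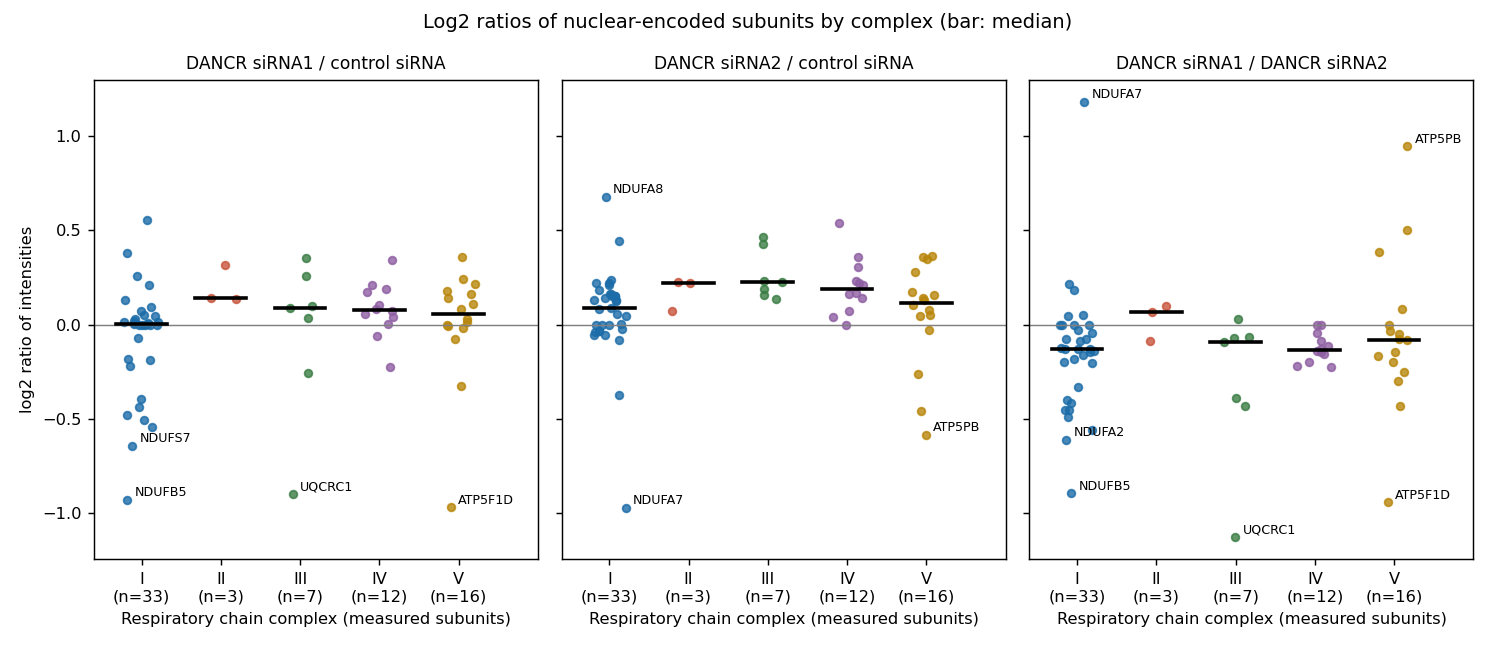
Log2 ratio of intensities (vertical axis) for each measured subunit (points) of complexes I to V, in panels for siRNA1 against control, siRNA2 against control and siRNA1 against siRNA2, with the median of each complex as a bar and members at least 1.5-fold apart named. Complex IV lies in a narrow band (0.56 wide with siRNA1), and NDUFB5, UQCRC1 and ATP5F1D lie at -0.93, -0.90 and -0.97 with siRNA1.

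Large differences were few. At 1.5-fold or more, 0 members were higher with siRNA1, beside 7.14% of all genes and 1.28% of the bright ones, and 4 were lower (4.82%, beside 6.03% and 2.78%). With siRNA2, 1 of 83 members was at least 1.5-fold higher, beside 8.75% of all genes and 2.57% of the bright ones, and 2 were lower (2.41%, beside 4.29% and 4.07%). These shares were below or near the background of all genes. No member differed by 1.5-fold in the same direction with both siRNAs, where 3.50% of all genes and 1.07% of the bright ones were higher, and 1.29% and 0.642% lower. A 2-fold difference from the control was found for 0 of 83 members, whereas all genes gave 1.87% higher and 1.75% lower with siRNA1, and 2.15% and 1.21% with siRNA2. A limma fit that took both siRNA arrays as replicates of each other, which leaves 1 residual degree of freedom, gave 0 of 83 members and 0 of 12436 genes at an adjusted p under 0.05, with 8 members and 1699 genes at an unadjusted p under 0.05. The smallest limma adjusted p among members was 0.215. That fit called no gene, DANCR included, so it says nothing on whether members differed.

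Complex I takes electrons from NADH at its N module, carries them through iron-sulfur clusters to the Q module, and pumps protons in its membrane arm. Of its core subunits, most of which hold the flavin or a cluster, 5 were measured. With siRNA1, 4 of them were lower, beside 39.5% of all measured genes. The median log2 ratio of the core subunits was -0.39 with siRNA1 and 0.06 with siRNA2. NDUFV1, which binds NADH and flavin, read 718 with the control siRNA, 546 with siRNA1 and 747 with siRNA2. The siRNA1 array was the low one, with log2 ratios of -0.39 and 0.06. NDUFV2, its iron-sulfur partner in the N module, read 1045, 771 and 1029 in the same order of arrays. Again only siRNA1 lay well below the other arrays (log2 ratios of -0.44 and -0.02).

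NDUFS1, the largest N module core subunit and a carrier of several clusters, was nearly level at 273, 283 and 289. In the Q module, NDUFS7, which holds the last cluster before coenzyme Q, read 241 with the control, 154 with siRNA1 and 227 with siRNA2, or 1.56-fold lower with siRNA1. A second, dim probe set of NDUFS7 gave log2 ratios of 0.05 and 0.00 and did not show that difference. NDUFS3, another core subunit of the Q module, read 396, 340.4 and 467. Its siRNA arrays lay on either side of the control, at log2 ratios of -0.22 and 0.24. All 5 core subunits were lower with siRNA1 than with siRNA2, by 0.03 to 0.56 on the log2 scale, and 4 of 5 were after median-centring. In the deposited scaling 41.8% of all measured genes were lower with siRNA1 than with siRNA2. NDUFS3, NDUFS1, NDUFV1 and NDUFV2 were chosen after their values were seen, because they complete the core set.

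The 28 measured accessory subunits of complex I surround that core and stabilise it. Their medians were 0.01 with siRNA1 and 0.13 with siRNA2. Higher were 16 (57.1%) and 18 (64.3%) of them, beside 42.3% and 45.0% of all measured genes. NDUFA8, a proximal membrane arm subunit with paired cysteines, was the member farthest above the control with both siRNAs: it read 604, 886 and 966. Both siRNA arrays exceeded the control, by 1.47-fold and 1.60-fold, and a single probe set carried the gene. NDUFA5, in the Q module, read 177, 211 and 239.8, with log2 ratios of 0.26 and 0.44. NDUFB6, in the distal membrane arm, read 1698, 2205 and 1902 (0.38 and 0.16). In both genes the siRNA arrays lay above the control, with the larger ratio on different arrays.

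The accessory subunits farthest below the control were, apart from NDUFV3, low with 1 siRNA alone. NDUFB5, in the distal membrane arm, read 868 with the control, 456 with siRNA1 and 848 with siRNA2. The siRNA1 value was 1.91-fold below the control and the siRNA2 log2 ratio was -0.03. NDUFB10, of the same arm, read 968, 663 and 932, but its other probe set (681, 671 and 681) was level. NDUFA7, an N module subunit, showed the reverse order of the siRNAs: it read 306, 355 and 156, or 1.96-fold lower with siRNA2 and 1.16-fold higher with siRNA1. Its other probe set was dim, at 25.9 on all 3 arrays. NDUFV3, a small subunit beside NDUFV1 and NDUFV2, was the complex I gene farthest below the control with both siRNAs, at 389, 274 and 300.5 (log2 ratios of -0.51 and -0.37). Its other, dim probe set (32.5, 32.5 and 29.2) gave 0.00 and -0.16 and did not show the siRNA1 difference.

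The brightest complex I probe sets were steady. NDUFAB1, the acyl carrier protein shared with mitochondrial fatty acid synthesis, had the equal value 2798 on all 3 arrays. NDUFB9, a distal arm subunit, read 3151, 3315 and 3499. NDUFB4, of the same arm, read 2046, 2064 and 2177. Both distal arm genes had their highest value with siRNA2, at log2 ratios of 0.15 and 0.09.

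By module, the N module (9 subunits) had medians of 0.01 and 0.06, the Q module (5) of -0.07 and 0.12, the proximal membrane arm (7) of 0.00 and 0.14 and the distal arm (11) of 0.01 and 0.09. The modules therefore shared a near-zero median with siRNA1.

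Complex II is succinate dehydrogenase, which links the citric acid cycle to the chain. Its 3 measured subunits were higher with both siRNAs, except that SDHA was below the control with siRNA2 after median-centring. Higher with both in the deposited scaling were 29.2% of all measured genes. SDHA, the flavoprotein that oxidises succinate, read 239.5 with the control, 264 with siRNA1 and 252 with siRNA2, for log2 ratios of 0.14 and 0.07. SDHC, a membrane anchor that helps form the coenzyme Q site, read 178, 196 and 208 (0.14 and 0.23). SDHD, the other anchor, read 538, 671 and 627 (0.32 and 0.22). In each gene both siRNA arrays lay above the control array, and which siRNA was higher varied between the genes. All 6 measured probe sets of SDHC were above the control with both siRNAs.

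Complex III holds cytochrome c1, encoded by CYC1, among its catalytic subunits, a pair of large core proteins and several small subunits. All 7 measured genes were higher with siRNA2, and 5 of 7 with siRNA1, beside 45.0% and 42.3% of all measured genes. UQCRC1, the first core protein, read 535 with the control, 287 with siRNA1 and 627 with siRNA2. The siRNA1 array was 1.87-fold below the control and 2.19-fold below siRNA2, and the gene has a single probe set. UQCRC2, the second core protein, read 626, 640.2 and 864, and only the siRNA2 array stood apart (log2 ratios of 0.03 and 0.46). CYC1 read 1501, 1255 and 1646, below the control with siRNA1 and above it with siRNA2 (-0.26 and 0.13).

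The 4 small subunits of complex III were above the control on both siRNA arrays, also after median-centring, with medians of 0.18 and 0.21. In the deposited scaling 29.2% of all measured genes were above the control on both. UQCR10, which packs near cytochrome c1, read 1002, 1280.3 and 1346 (log2 ratios of 0.35 and 0.43). UQCRB, which lies near the coenzyme Q site, read 2124, 2539.7 and 2487 (0.26 and 0.23). UQCRQ, another small subunit, read 1720.3, 1839.9 and 1963 (0.10 and 0.19). UQCR11 read 778, 828 and 867 (0.09 and 0.16). With siRNA1, UQCRC1 and CYC1 were thus the only complex III genes below the control.

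Complex IV, cytochrome c oxidase, has its catalytic centre in subunits made inside mitochondria, while the nuclear subunits surround and regulate it. Its log2 ratios spanned 0.56 with siRNA1 and 0.54 with siRNA2, against 1.48 and 1.65 in complex I and 1.33 and 0.95 in complex V. The spans were 0.18 and 0.15 over the 3 genes of complex II and 1.25 and 0.33 over the 7 of complex III. The part of the number of genes in these spans was not tested. Of the 10 widely expressed subunits, 9 were higher with siRNA1 and 10 with siRNA2, beside 42.3% and 45.0% of all measured genes. The ratios of these subunits were -0.06 to 0.21 and 0.04 to 0.36, and after median-centring 8 were higher with each siRNA. COX7A2, the liver-type isoform of subunit 7A found in most tissues, read 2715 with the control, 3142 with siRNA1 and 3479 with siRNA2. COX5B, which binds zinc, read 634, 721 and 743, and its 4 measured probe sets were all above the control with both siRNAs. COX6C, another small membrane subunit, read 2833, 3044 and 3296. In these genes the order was control, then siRNA1, then siRNA2. The same order held in COX7C, a small membrane subunit chosen after its values were seen, at 2643, 2982 and 3262.

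COX4I1, the widely expressed form of the large nuclear subunit, read 2302, 2441 and 2589, again in that order. COX6A1, a regulatory subunit, read 2939, 2941 and 3242, so that siRNA1 was level with the control and siRNA2 above it. COX6B1, which faces the intermembrane space, read 1179, 1224 and 1366. COX7B was the only widely expressed subunit below the control with an siRNA, at 2536, 2431 and 2834 (log2 ratios of -0.06 and 0.16). COX8A, the widely expressed form of subunit 8, read 1083, 1137 and 1137, equal on the siRNA arrays.

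Several subunits of complex IV have tissue-restricted isoforms, and these were dim or below the floor. COX4I2, known from lung and hypoxia, did not exceed the floor on any array, nor did the heart and muscle forms COX6A2 and COX7A1 or the testis form COX8C. None of the 4 striated muscle markers and 3 testis markers with a probe set exceeded the floor either. COX7B2, a testis isoform of COX7B, read 37.8, 47.9 and 54.9 (log2 ratios of 0.34 and 0.54). COX6B2, a testis isoform of COX6B1, lay just above the floor at 12.5, 10.7 and 12.5. Of the tissue isoforms listed for complex IV, only COX7B2 and COX6B2 thus counted as measured.

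**Figure D2:**
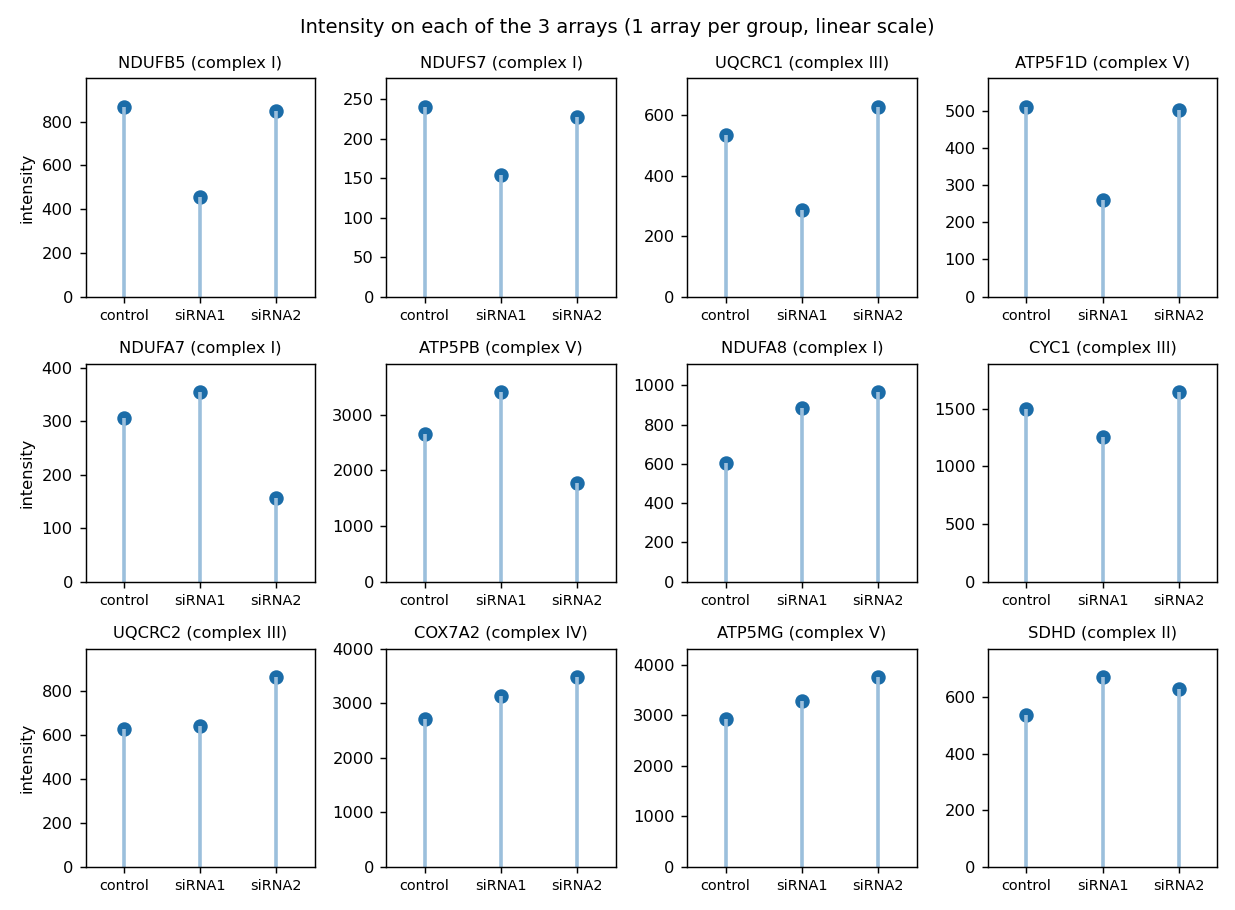
Intensity (linear scale from 0, each panel with its own axis) on the control, siRNA1 and siRNA2 arrays for 12 subunits chosen after their values were seen, 1 panel per gene and 1 point per array. NDUFB5, NDUFS7, UQCRC1 and ATP5F1D are low with siRNA1 (456, 154, 287 and 261), NDUFA7 and ATP5PB are low with siRNA2 (156 and 1772), and COX7A2, ATP5MG and SDHD are above the control with both.

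Complex V, the ATP synthase, has a catalytic F1 head, a rotating ring of c subunits, a peripheral stalk that holds the head still, and further membrane subunits. In the head, ATP5F1A and ATP5F1B form the catalytic ring. ATP5F1A read 3445 with the control, 3473 with siRNA1 and 3559 with siRNA2. ATP5F1B read 2233, 2233 and 2309.6. Both were within 0.05 of the control on the log2 scale. ATP5F1C, the central stalk subunit that turns inside the head, read 2486, 2359.5 and 1807, lower with siRNA2 by 0.46 on the log2 scale. Its other bright probe sets gave -0.44 and -0.42 with siRNA2, so the probe sets shared that direction.

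ATP5F1D, the delta subunit at the foot of the central stalk, read 511, 261 and 502. It was 1.96-fold lower with siRNA1 and level with siRNA2, but a second probe set (165, 186 and 186) was above the control with both. Taking the median over a gene's probe sets left 2 members at least 1.5-fold lower with siRNA1 in place of 4, and 0 in place of 2 with siRNA2. ATP5PB, the main shaft of the peripheral stalk, read 2658, 3411 and 1772. It was thus higher with siRNA1 (log2 ratio of 0.36) and lower with siRNA2 (-0.59), and its other, dim probe set was above the control with both (0.40 and 0.24). ATP5PB and ATP5F1B were chosen after their values were seen.

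The rest of the peripheral stalk was above the control with both siRNAs, as in ATP5PF, coupling factor 6, at 1363, 1541 and 1733 (0.18 and 0.35). In the c ring, 3 genes code for the same mature protein, and their ratios parted. ATP5MC1 read 1333, 1061 and 1431 (-0.33 and 0.10). ATP5MC2 read 1162, 1371 and 969.6 (0.24 and -0.26). ATP5MC3 read 1676, 1846 and 1846 (0.14 and 0.14). One gene was low with siRNA1, another low with siRNA2, and the last was above the control with both; the first pair was chosen after its values were seen.

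The 4 measured subunits of the membrane part join synthases into dimers and help hold the proton channel. All were higher with siRNA2, also after median-centring, with a median of 0.32 and a range of 0.17 to 0.36. In the deposited scaling 45.0% of all measured genes were higher with siRNA2. ATP5MG, subunit g, read 2927, 3270.1 and 3751 (0.16 and 0.36). All 4 of its measured probe sets were above the control with both siRNAs, with siRNA2 ratios of 0.33 to 0.36. ATP5MK, a small dimer-associated subunit, read 3309, 3567 and 4253 (0.11 and 0.36). Both genes therefore had their highest value with siRNA2. ATP5MF, subunit f, did not exceed the floor in the single-gene probe set available and was not interpreted.

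The siRNA arrays can be compared with each other without the control array. Of the 83 members, 55 (66.3%) were lower with siRNA1 than with siRNA2, beside 41.8% of all measured genes and 42.6% of the bright ones. Higher with siRNA1 were 18 (21.7%), beside 36.7% and 46.0%. Median-centring left 57.8% of members lower, beside 34.3% of all genes. Every complex except II leaned that way: 24 of 33 subunits in complex I, 6 of 7 in complex III, 10 of 12 in complex IV and 11 of 16 in complex V were lower with siRNA1, and 1 of 3 in complex II. In complex IV no subunit was higher with siRNA1 than with siRNA2. After median-centring, 3 of its 12 were. The median over all subunits was -0.12. At 1.5-fold, 5 members were lower with siRNA1 (UQCRC1, ATP5F1D, NDUFB5, NDUFAF3 and NDUFA2; 6.02%, beside 8.57% of all genes and 3.43% of the bright ones) and 2 were higher (NDUFA7 and ATP5PB; 2.41%, beside 5.21% and 3.64%). At 2-fold, UQCRC1 was 2.19-fold lower (background 2.40%) and NDUFA7 2.27-fold higher (background 1.51%). The members so named belong to complexes I, III and V and, in NDUFAF3, to the assembly factors.

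Probe sets of a gene share the arrays and are no replicates, but they show how far a ratio depends on the probes. Of the 40 member genes with 2 or more measured probe sets, the second brightest agreed in direction with the brightest for 20 with siRNA1 and for 23 with siRNA2, was opposite for 9 and 5, and the rest had a ratio of 0. Where the second probe set had an intensity of at least 100 (21 genes), the directions matched for 14 and 17 genes. The median gap between the probe sets was then 0.10 with siRNA1 and 0.05 with siRNA2, and the widest gap 1.14, at ATP5F1D, and 0.20. Bright probe sets of a gene thus lay closer together with siRNA2 than with siRNA1.

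**Figure D3:**
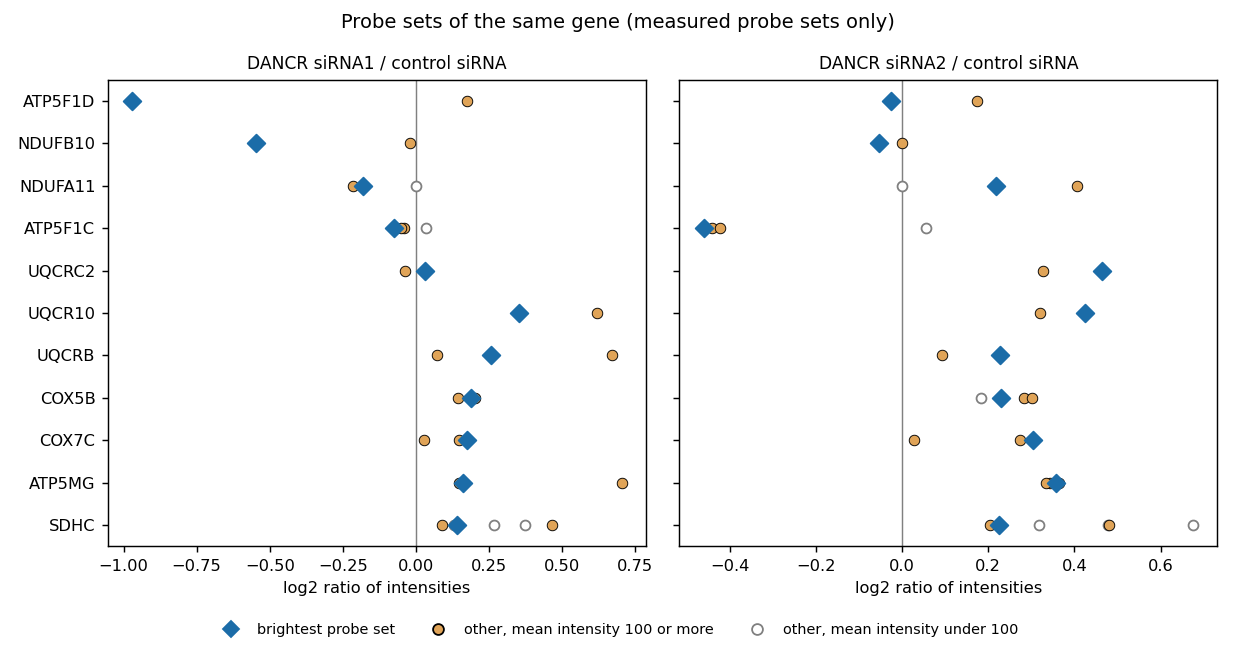
Log2 ratio of intensities (horizontal axis) for each measured probe set of 11 subunit genes chosen after their values were seen, with siRNA1 and with siRNA2 against the control: diamonds are the brightest probe set, filled circles others with a mean intensity of 100 or more, and open circles dimmer ones. The ATP5F1D probe sets lie apart with siRNA1 (-0.97 and 0.17), and the bright ATP5F1C probe sets lie together with siRNA2 (-0.46, -0.44 and -0.42).

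The symbol rule also took in 10 proteins that are not subunits, whose medians were 0.05 with siRNA1 and 0.06 with siRNA2. ATP5IF1, the inhibitor that stops the synthase from running backwards, read 319.9 with the control, 404 with siRNA1 and 399.5 with siRNA2, above the control on both siRNA arrays. NDUFAF1, an early assembly factor of complex I, read 159, 199.5 and 184 (log2 ratios of 0.32 and 0.21). NDUFAF8, which helps NDUFAF5 modify a core subunit, read 551, 583 and 676 (0.08 and 0.30). These were the associated genes farthest above the control with both.

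NDUFAF3, another complex I assembly factor, read 214, 155 and 264, lower with siRNA1 and higher with siRNA2 (-0.46 and 0.31). It was chosen after its values were seen. NDUFAF4, its partner in assembly, read 641, 662 and 608 in its brightest probe set, and a dimmer one (87.4, 55.2 and 54.0) was lower with both. COX7A2L, which helps complexes III and IV join into supercomplexes, read 1244, 1365 and 1248. Of all 10 associated genes, 8 were higher and 1 lower with siRNA1, beside 42.3% and 39.5% of all measured genes. With siRNA2, 6 were higher and 2 lower, beside 45.0% and 36.2%. With both siRNAs 5 were higher and 0 lower, beside 29.2% and 23.7% of all genes. After median-centring, with the medians of all genes at -0.04 and -0.11, 4 were higher and 3 lower with both.

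Other genes of the pathway were read from lists. Assembly factors outside the symbol rule, which build the complexes without staying in them, leaned up: 46 of 47 were measured, and their medians were 0.14 and 0.26. With both siRNAs 25 were higher (54.3%, beside 29.2% of all genes) and 5 lower (10.9%, beside 23.7%). After median-centring the medians were 0.10 and 0.15, with 25 higher and 10 lower with both. FMC1, an assembly factor of complex V, read 75.2, 235 and 232, and was about 3-fold above the control with both siRNAs (log2 ratios of 1.65 and 1.62). TMEM186, of the complex I assembly machinery, read 57.2, 92.2 and 104 (0.69 and 0.86). COA1, an assembly factor listed with complex I, was lower with both at 319, 253 and 217. TTC19, of complex III, was lower with both at 529, 367 and 474. SURF1, a complex IV assembly factor chosen after its values were seen, read 211, 69.9 and 272, or 3.02-fold lower with siRNA1 and higher with siRNA2. Its other, dim probe set gave 0.26 and 0.00, so the siRNA1 difference rested on 1 probe set.

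Cytochrome c carries electrons from complex III to complex IV. CYCS, its somatic gene, also chosen after its values were seen, read 1671 with the control, 775 with siRNA1 and 2327 with siRNA2. The value was 2.16-fold lower with siRNA1 and higher with siRNA2. UQCRC1 and CYC1 in complex III had the same order, and so did members outside it, such as NDUFV1, ATP5MC1 and NDUFAF3. The other, dim probe sets of CYCS gave log2 ratios of -0.92 and 0.81, and of 0.12 and 0.42.

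Coenzyme Q synthesis (13 of 13 measured) had medians of 0.08 and 0.10. With both siRNAs 6 genes were higher (46.2%, beside 29.2% of all genes) and 3 lower (23.1%, beside 23.7%), and after median-centring 6 were higher and 6 lower. COQ3, a methyltransferase of the pathway, read 294, 446 and 418. COQ9, a lipid-binding partner, read 167, 248 and 250.4. COQ10B, a coenzyme Q-binding protein, was lower with both at 126, 73.5 and 65.9, and so was COQ8A at 84.1, 61.9 and 77.5. The pathway thus held ratios in both directions.

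Among 19 measured regulators of mitochondrial gene expression, 7 were higher and 7 lower with both siRNAs (36.8% each, beside 29.2% and 23.7% of all genes), and the medians were -0.13 and 0.25. TFB1M, a methyltransferase of mitochondrial ribosomal RNA, had log2 ratios of 0.49 and 0.51. TFB2M, its relative in mitochondrial transcription, had -0.55 and -0.41. GABPB1, a subunit of the ETS factor GABP, had -0.31 and -0.53. GABPA, another subunit of GABP, went the other way at 0.60 and 0.30, and was chosen after its values were seen. The brightest probe set of YY1 had 0.33 and 0.31. A pair of other YY1 probe sets, with control intensities of 353 and 303, lay below the control with siRNA1 (-0.25 and -0.39) and above it with siRNA2 (0.63 and 0.47). These regulators did not share a direction. The citric acid cycle (12 of 14 measured) had medians of 0.00 and 0.03, with 4 genes higher (33.3%) and 2 lower (16.7%) with both siRNAs. Farthest above the control with both by the smaller ratio were IDH3A, at 0.52 and 0.54, and CS, citrate synthase, at 0.50 and 0.45. Below it with both were DLST, of the oxoglutarate dehydrogenase complex, at -0.38 and -0.31, and IDH3B at -0.10 and -0.02.

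**Figure D4:**
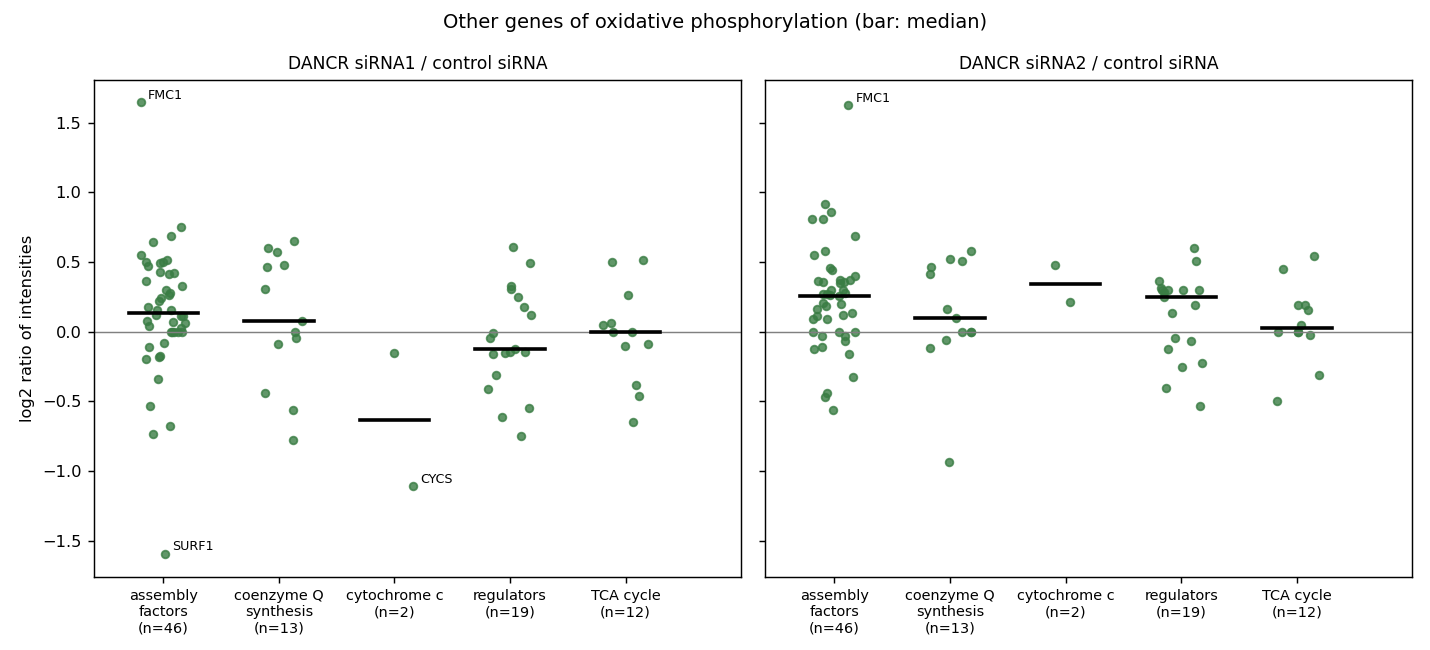
Log2 ratio of intensities for measured genes of oxidative phosphorylation outside the symbol rule (points, median as a bar), with siRNA1 and with siRNA2 against the control. FMC1 is high with both siRNAs (1.65 and 1.62), and SURF1 and CYCS are low with siRNA1 alone (-1.59 and -1.11).

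Promoters of respiratory genes are known for sites of NRF1, of ETS factors such as GABP, and of YY1 and SP1. RefSeq promoters (GRCh38.p14), each 250 bases before to 50 after a gene's start, were matched for 64 of the 76 subunit genes, as 76 promoters. Both strands were searched. The ETS letters CCGGAAG were in 26.3% of subunit promoters, beside 16.4% of promoters of measured genes and 10.3% of all promoters. The NRF1 palindrome, spelled out in capitals in the SDHD and NDUFB4 windows below, was in 5.26%, beside 1.94% and 1.24%. A looser form, which takes any base at the fifth letter of the palindrome and so includes it, was in 21.1%, beside 9.65% and 5.78%. The YY1 motif was in 3.95%, beside 1.65% and 0.849%. The SP1 letters GGGGCGGGG went the other way, at 14.5%, beside 24.8% and 15.7%.

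By complex, ETS letters were found in 5 of 31 genes of complex I, 1 of 2 of complex II, 2 of 5 of complex III, 5 of 13 of complex IV and 6 of 13 of complex V. The looser NRF1 form was found in 6, 2, 3, 1 and 4 genes in the same order. Complexes IV and V thus had more genes with ETS letters than with the looser NRF1 form. The 19 measured subunits with ETS letters stood at a median of 0.08 with siRNA1, where 17 were higher, and of 0.17 with siRNA2, where 18 were. The 43 without stood at 0.01 and 0.12, with 23 and 29 higher. Of all measured genes, 42.3% and 45.0% were higher, and other genes with ETS letters were not compared. Some of the 17 were nearly level with siRNA1, as in COX6A1 (0.00098), NDUFB7 (0.0012) and NDUFA13 (0.0026). The motif counts were not repeated after median-centring, which moved the medians of all genes to -0.04 and -0.11. With siRNA1, medians with and without the motif were 0.01 and 0.03 for the looser NRF1 form and 0.00 and 0.04 for SP1. They were -0.07 and 0.03 for YY1 (3 with) and 0.16 and 0.02 for the exact NRF1 palindrome (4 with). With siRNA2 they were 0.16 and 0.13, 0.13 and 0.15, 0.21 and 0.14, and 0.16 and 0.14 in that order. A match is a description of letters and not a site.

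The windows below lie upstream of the start and are printed 5′ to 3′ on the gene's strand, with the motif in capitals. They were chosen after the values were seen: COX5B, UQCRQ and the peripheral stalk subunit ATP5PD carry ETS letters and were above the control with both siRNAs, SDHD and NDUFB4 carry the exact NRF1 palindrome, and UQCRC1, low with siRNA1, carries the looser NRF1 form. In ATP5PD the letters read CTTCCGG, the other strand of CCGGAAG.
COX5B: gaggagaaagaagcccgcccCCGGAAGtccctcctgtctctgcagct
UQCRQ: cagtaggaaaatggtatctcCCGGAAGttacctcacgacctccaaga
ATP5PD: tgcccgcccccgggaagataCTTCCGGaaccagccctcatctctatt
SDHD: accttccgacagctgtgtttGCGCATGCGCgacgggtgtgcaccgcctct
NDUFB4: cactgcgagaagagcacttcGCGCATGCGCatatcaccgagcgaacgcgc
UQCRC1: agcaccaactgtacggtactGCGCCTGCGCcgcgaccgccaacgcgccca

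In GRCh38.p14 the COX5B window is chr2:97646005-97646051 on the plus strand and the UQCRQ window chr5:132866568-132866614 on the plus strand. The ATP5PD window is chr17:75047044-75047090 on the minus strand. The SDHD window is chr11:112086743-112086792 and the NDUFB4 window chr3:120596157-120596206, both on the plus strand. The UQCRC1 window is chr3:48609664-48609713 on the minus strand. ATP5PD read 1579 with the control, 1830.2 with siRNA1 and 1726 with siRNA2, for log2 ratios of 0.21 and 0.13. Genes with the same letters thus included UQCRQ and ATP5PD, whose larger ratio came with different siRNAs.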

How the data were processed

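The deposited values are linear intensities, with no log taken by the authors. GCOS 1.4 is named per the submitters' processing notes, and the normalisation is not given in the sources used here. Of 54675 probe sets, 41097 named 1 gene in the platform annotation, 1801 several and 11777 none. Of the first, 41091 remained after Affymetrix control probe sets were left out. Values were floored at the 50th percentile, log2 ratios were taken between arrays, and calls used 1.5-fold and 2-fold. As there was 1 array per group, no test was run beside a limma fit (limma 3.58.1, R 4.3.3), tested on simulated data. The members and lists were chosen with earlier results of these data known. Named genes were all measured subunits of complexes II and III. In complexes I, IV and V and the associated factors they were the 3 brightest and the 3 highest and lowest by the smaller ratio among genes with the same direction in both siRNAs. Members at least 1.5-fold off with both, members 2-fold off in any comparison, and tissue isoforms with their partners were added. In other lists the rule took the 2 largest each way by the smaller ratio. Further genes named for completeness of a role or as a 1.5-fold call were chosen after their values were seen. Other settings were median-centring, which centred each array on the median of its log2 values above the floor, and quantile-normalised arrays. Further settings were a floor at percentile 30 or 70 or no floor, and the median over probe sets. The last were leaving out _s_at and _x_at probe sets, the mean, and assignment by symbol prefix. Tools were Python 3.11.15 and pandas 2.3.3.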

Additional observations from a re-analysis of the deposited data

Results flagged for a closer look

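ATP5PB, of the ATP synthase peripheral stalk, lay on opposite sides of the control with the siRNAs by more than 1.2-fold each way: its log2 ratio was 0.36 with siRNA1 and -0.59 with siRNA2. NDUFAF3, a complex I assembly factor, did so in the other order, at -0.46 and 0.31. With 1 array per group neither difference was tested.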

How the results depend on the processing

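No paired analysis was possible because each group had 1 array. Medians were compared with a margin of 0.1 on the log2 scale and counts with one of 1.5 times: 151 medians and 98 counts stayed within, 10 medians and 16 counts moved, and 1 median reversed. Median-centring moved the median of all genes to -0.04 with siRNA1, -0.11 with siRNA2 and 0.07 between the siRNAs. It gave siRNA2 medians of -0.019 in complex I, 0.11 in II, 0.12 in III, 0.061 in IV and 0.030 over all subunits. It put the siRNA2 median of complex V at -0.0016, the 1 median counted as reversed. That value included ATP5MF, which did not count as measured in the deposited scaling, so the set of genes had changed too. Without _s_at and _x_at probe sets, which left 55 subunits, complex II stood at 0.29 with siRNA1, 0.35 with siRNA2 and -0.058 between the siRNAs. By the mean, complex III stood at -0.047 with siRNA1 and -0.31 between the siRNAs. Counts at 1.5-fold without those probe sets were 3 higher and 2 lower with siRNA1, 1 lower with siRNA2, and 1 higher and 3 lower with siRNA1 than siRNA2. By the median over probe sets they were 2 lower with siRNA1, 0 lower with siRNA2, and 1 higher and 3 lower between the siRNAs, with 0 higher at 2-fold. Median-centring gave 0 higher at 1.5-fold with siRNA2, and at 2-fold 1 lower with each siRNA and 2 higher between them. Quantile normalisation gave 1 lower at 1.5-fold and 1 lower at 2-fold with siRNA2. The cause of these moves was not tested, apart from the smaller number of probe sets. Having 3 arrays limits the precision of all values, and where an array lay at the floor its ratio only bounds the difference.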
